A study of Mus musculus with 28 samples.

Results

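The 34 genes described here form the PPAR alpha and fatty acid oxidation module of the liver. They were chosen as all probes whose RefSeq accession maps to a list of genes of mitochondrial and peroxisomal fatty acid oxidation, ketone body formation and the PPAR alpha response. All 34 had a probe, 43 probes in all, among 20660 gene symbols and 55681 probes on the array. RNA came from livers of male B6C3F1 mice, a hybrid strain, labelled as 42 days old. Control mice (n = 3) drank water alone, and phenobarbital mice (n = 3) drank water with 0.05% phenobarbital, a sedative that induces liver enzymes, for about 4 weeks. All livers had been fixed in formalin and kept in paraffin blocks for 16 years, a storage that fragments and modifies RNA and that both groups share. The same 6 mice were measured in 4 sets, with 6 one-colour arrays at 1X cDNA input, 6 at 1.5X, and 8 two-colour arrays at each input, of which 6 of the 1X arrays were used, because the labels of the other 2 give opposite exposures for a dye. The labels number the mice of each group 1 to 3, and p-values measure the spread between these mice. In the two-colour 1X set, description and source names disagree on the mouse numbers of 4 arrays used, so this spread is uncertain there.

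Fatty acids are the main fuel of the fasting liver. PPAR alpha, a nuclear receptor that binds fatty acids and pairs with RXR, switches on the genes for their uptake, activation and breakdown. Long chains cross the mitochondrial membranes as carnitine esters, are shortened in the matrix in repeated rounds of dehydrogenation, hydration, dehydrogenation and thiolysis, and yield acetyl-CoA that the liver exports as ketone bodies. Very long chains are first shortened in peroxisomes. Phenobarbital acts in liver mainly through another nuclear receptor, CAR, whose best known target is the cytochrome P450 gene Cyp2b10.

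PPAR alpha with RXR binds direct repeats of the half-site AGGTCA spaced by 1 base. The windows upstream of the listed genes were searched because the list includes genes of the PPAR alpha response. RefSeq promoters (assembly GRCm38.p6) were found for 29 of the 34 genes, as 31 windows of 250 bases before the start, and both strands were searched. AGGTCANAGGTCA was in 0 of the 31 windows and in 0.0335% of all 32851 windows. The relaxed form AGGNCANAGGNCA was in 1 of the 31, that of the fatty acid binding protein gene Fabp1, and in 0.338% of all windows. The single half-site AGGTCA, which the first motif contains as a pair, was in 6 of the 31 windows (19.4%) and in 14.0% of all. The Fabp1 window (chr6:71199629-71199878, plus strand, 5′ to 3′) has the relaxed match in capitals, on the strand opposite to the gene, from -67 to -55 relative to the start.
Fabp1: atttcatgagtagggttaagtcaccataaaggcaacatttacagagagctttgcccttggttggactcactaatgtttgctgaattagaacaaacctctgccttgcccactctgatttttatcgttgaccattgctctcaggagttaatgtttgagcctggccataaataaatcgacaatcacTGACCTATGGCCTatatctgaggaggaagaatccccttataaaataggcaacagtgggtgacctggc
The Fabp1 window also held the half-site, from -67 to -62 within the capitals and from -9 to -4 in small letters. The half-site, in capitals below, stood also in the windows of Acadm (chr3:153944877-153944893, minus strand), Plin2 (chr4:86670262-86670287, minus strand), Cd36 (chr5:17836109-17836134, minus strand), Acadvl (chr11:70015500-70015525, minus strand) and Cpt1a (chr19:3323197-3323222, plus strand), each printed in the direction of its gene.
Acadm: gTGACCTtcgggctccg
Plin2: tcaggaccccTGACCTaagtcagaca
Cd36: ctgcactttaTGACCTgagattttca
Acadvl: ggatcaccctAGGTCAggtagaatac
Cpt1a: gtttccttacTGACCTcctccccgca
A match describes letters in a window and is no binding site. The probe sequences were not used here.

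The exposure check was Cyp2b10. Its probe was well above background on 0 of 6 control arrays and on 6 of 6 phenobarbital arrays over both one-colour inputs. This gave at least 23.6-fold higher signal after phenobarbital, a bound that was not itself tested. The measured log2 difference was 6.21 (limma adjusted p = 0.000133), with control values that are all dim. In the two-colour 1X set the bound was 3.2-fold, on a scale that an offset of 50 compresses. In the two-colour 1.5X set the probe was well above background on 4 of 8 channels in each group and was not tested. Its log2 signal there was 7.00, 7.17 and 6.60 in the controls and 7.36, 7.28 and 7.01 after phenobarbital, and these groups overlapped, so the check gave no clear separation in that set. All 6 hepatocyte markers with a probe were well above background on every array of the one-colour sets and the two-colour 1X set. Of the 4 muscle markers, Ckm and Myh4 were well above background on none of these arrays. Acta1 and Tnnt3 were so on every one-colour 1X array, though on none of the two-colour 1X arrays. Of all probes, the share with signal well above background ran from 44.2% to 51.9% on the one-colour 1X arrays, 28.1% to 38.5% at 1.5X, and down to 2.98% in the Cy5 channel of the two-colour 1.5X arrays.

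Over both one-colour inputs, the listed genes lay mostly lower in the phenobarbital mice by small amounts, and none passed the test. Values here are log2 processed signals minus the 75th percentile of each array, averaged over the 2 arrays of a mouse, and differences are phenobarbital minus control. Of the 34 genes, 29 were tested, since 1 or both groups had signal well above background on every array. With limma and Benjamini-Hochberg adjustment over all 12810 genes tested, 0 of the 29 passed 0.05, where 0.742% of all genes did. At an unadjusted p under 0.05, 6 of the 29 were lower and 0 higher, beside 6.81% and 6.66% of all genes. The log2 fold change was below 0 for 27 of the 29, beside 53% of all genes, and its median was -0.27, beside -0.019 over all genes. Etfdh entered through the controls alone, and a gene that enters through 1 group is the more likely to read lower in the other, so these counts only describe. Over genes well above background on every array of both groups, a choice made after seeing the data, 26 of 28 listed genes were below 0 (50.8% of all 10869 genes), with a median of -0.26 beside -0.0051, and 6 were lower at an unadjusted p under 0.05, beside 6.25% of all genes. The groups did not overlap for 5 genes that were lower (17.2%, beside 9.89% of all genes) and for 1 that was higher, beside 9.07% of all genes. In bulk liver RNA, fewer cells of a type and less RNA per cell cannot be told apart.

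**Figure D1:**
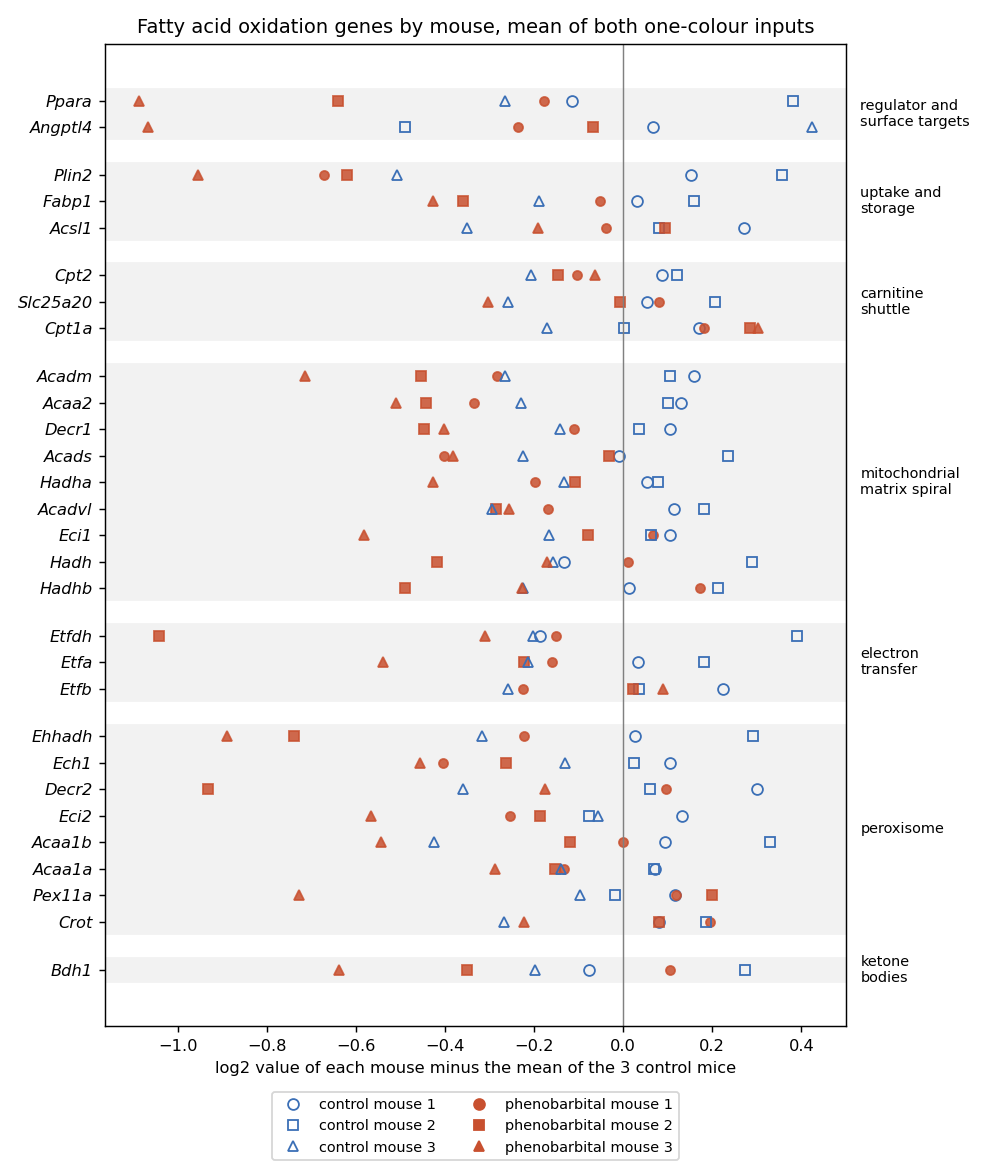
Log2 value of each mouse minus the mean of the 3 control mice (x axis) for the 29 genes tested over both one-colour inputs, grouped by role (right). Open blue symbols are control mice and filled red symbols phenobarbital mice, with 1 shape per replicate number. Most red symbols lie left of 0, control mouse 3 lies with them for many genes, and in Plin2, Acadm, Acaa2, Ech1 and Eci2 every red symbol is left of every blue one.

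Among the regulator and its secreted or surface targets, Ppara itself, the receptor gene, measured 0.48, 0.98 and 0.33 in control mice 1 to 3 and 0.42, -0.043 and -0.49 in phenobarbital mice 1 to 3. Phenobarbital mouse 1 lay above control mouse 3, while the other 2 lay below every control. The difference was -0.64 (SE 0.27, limma adjusted p = 0.368), a 1.55-fold lower signal. Angptl4, a secreted inhibitor of lipoprotein lipase, gave 0.36, -0.20 and 0.71 in the controls and 0.054, 0.22 and -0.78 after phenobarbital. Its groups overlapped, with phenobarbital mouse 3 the lowest of all, and the difference was -0.46 (SE 0.32, adjusted p = 0.597). Vnn1, a pantetheinase of the cell surface, was well above background on 5 of 6 control and 4 of 6 phenobarbital arrays and was not tested over both inputs. The hormone gene Fgf21 was well above background on none of the 12 one-colour arrays, so it has only a bound in both groups.

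Lipid uptake, binding, activation and storage held the largest difference of the 29 genes tested. Plin2, which coats lipid droplets, measured -1.19, -0.99 and -1.85 in the controls and -2.01, -1.96 and -2.30 in the phenobarbital mice. Every phenobarbital mouse was below every control, and control mouse 3 was the nearest to them. The difference of -0.75 (SE 0.24, 95% interval -1.31 to -0.18, adjusted p = 0.244) is a 1.68-fold lower signal and did not pass. Fabp1, the abundant fatty acid carrier of the hepatocyte, gave 4.89, 5.02 and 4.67 and then 4.81, 4.50 and 4.43, with a difference of -0.28 (SE 0.17, adjusted p = 0.533). Here phenobarbital mouse 1 lay among the controls. The acyl-CoA synthetase Acsl1 differed by -0.045 (SE 0.19), less than the spread between mice. Cd36, a fatty acid transporter, was well above background on none of the 12 arrays.

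Differences of the carnitine shuttle genes were small, and 1 of the 3 tested, Cpt1a, was higher without overlap. Cpt1a, the outer membrane transferase that sets the rate of entry, measured -2.36, -2.53 and -2.71 in the controls and -2.35, -2.25 and -2.23 after phenobarbital. All 3 phenobarbital mice were above all controls, the nearest pair being phenobarbital mouse 1 and control mouse 1, and the difference was 0.26 (SE 0.15, adjusted p = 0.515). The direction turned, to -0.053, when both probes of Cpt1a were averaged. Cpt2, the inner membrane transferase, gave 2.02, 2.05 and 1.73 in the controls and 1.83, 1.79 and 1.87 after phenobarbital, a difference of -0.10 (SE 0.15, adjusted p = 0.805) with overlapping groups. The carrier gene Slc25a20 differed by -0.077 (SE 0.18), and Crat, carnitine acetyltransferase, was well above background on 1 of 6 arrays in each group and was not tested.

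In the mitochondrial matrix, all 9 genes tested of 10 had a log2 fold change below 0, from -0.48 to -0.18, with a median of -0.24, and 0 passed. Acadm, the medium-chain acyl-CoA dehydrogenase, measured 0.91, 0.85 and 0.48 in the controls and 0.46, 0.29 and 0.034 in the phenobarbital mice. The groups did not overlap, although phenobarbital mouse 1 and control mouse 3 were close, and the difference was -0.48 (SE 0.18, adjusted p = 0.322). Acaa2, a thiolase of the matrix, gave 2.17, 2.14 and 1.81 in the controls and 1.70, 1.60 and 1.53 after phenobarbital. Again no mouse of one group reached the other, and the difference was -0.43 (SE 0.16, adjusted p = 0.302), a 1.35-fold lower signal. The remaining 7 were the dehydrogenases Acadvl and Acads, the trifunctional protein subunits Hadha and Hadhb, the hydroxyacyl-CoA dehydrogenase Hadh, and Eci1 and Decr1, which prepare unsaturated chains. Their groups overlapped, and of these Decr1 had the largest difference, -0.32 (SE 0.16). The long-chain dehydrogenase Acadl was well above background on none of the 12 arrays.

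Electrons from these dehydrogenases pass through ETF, whose subunits are Etfa and Etfb, to the ubiquinone reductase Etfdh. Etfdh measured -3.93, -3.36 and -3.95 in the controls and -3.90, -4.79 and -4.06 after phenobarbital, and phenobarbital mouse 2 lay apart at the low end. It was well above background on 6 of 6 control but 3 of 6 phenobarbital arrays, and its difference was -0.50 (SE 0.28, adjusted p = 0.493). Etfa gave 2.93, 3.08 and 2.68 and then 2.74, 2.68 and 2.36, a difference of -0.31 (SE 0.18, adjusted p = 0.508) with overlap. Etfb differed by -0.038 (SE 0.18), within the spread of the mice.

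All 8 peroxisomal genes were tested, 7 had a log2 fold change below 0 and 0 passed, with a median of -0.28. Ehhadh, the bifunctional enzyme and a classical PPAR alpha target, measured -1.06, -0.80 and -1.41 in the controls and -1.31, -1.83 and -1.98 in the phenobarbital mice. Phenobarbital mice 2 and 3 were below all controls and mouse 1 was above control mouse 3, giving a difference of -0.62 (SE 0.23, adjusted p = 0.321) or a 1.53-fold lower signal. Ech1, a dienoyl-CoA isomerase, gave 1.74, 1.66 and 1.51 in the controls and 1.23, 1.37 and 1.18 after phenobarbital, with no overlap and a difference of -0.37 (SE 0.14, adjusted p = 0.323). The isomerase Eci2 also did not overlap (-0.34, SE 0.16). The thiolases Acaa1a (-0.19) and Acaa1b (-0.22) are near-identical copies whose probes may take up signal from each other. Decr2 (-0.34), the carnitine octanoyltransferase Crot (0.017) and the membrane peroxin Pex11a (-0.14) overlapped. For ketone bodies the list holds Bdh1, the hydroxybutyrate dehydrogenase, which measured -0.29, 0.058 and -0.41 in the controls and -0.11, -0.56 and -0.85 after phenobarbital. Its groups overlapped at a difference of -0.29 (SE 0.23, adjusted p = 0.629).

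The 4 sets were then compared. In them, too, a gene could enter through its higher group alone, so counts are given also for genes well above background throughout both groups. At the 1X one-colour input 30 of the 34 genes were tested, 0 passed (0.161% of 18644 genes did), and 2 were lower and 0 higher at an unadjusted p under 0.05, beside 3.72% and 4.85% of all genes. The median was -0.26, beside 0.011 over all genes, with 25 below 0 (48.3% of all genes), and 3 were lower without overlap, beside 6.59% of all genes, and 0 higher, beside 7.44%. Vnn1 was well above background on only 2 of 3 control arrays and Etfdh on only 1 of 3 phenobarbital arrays. Of the 28 genes well above background throughout, 24 were below 0 (47.7% of all such genes) and 2 were lower without adjustment (3.39%). At the 1.5X input 30 were tested, 0 passed (0.237% of genes did), and 4 were lower and 0 higher without adjustment, beside 7.9% and 7.03%. The median was -0.28, beside -0.024, with 29 below 0 (53.1% of all genes), and 5 were lower without overlap, beside 11.6%, and 0 higher, beside 9.22%. Without Vnn1 and Etfdh, which were dim on some phenobarbital arrays, the genes well above background throughout numbered 28, of which 27 were below 0 (50.6% of all such genes), with a median of -0.26, and 6 were lower without adjustment (7.53%). Single genes can be followed across the inputs. Plin2 measured -0.86, -0.76 and -1.71 in the controls and -1.86, -2.00 and -1.88 after phenobarbital at 1X, and -1.52, -1.22 and -2.00 and then -2.17, -1.92 and -2.72 at 1.5X. Its groups were apart at 1X, and at 1.5X phenobarbital mouse 2 lay above control mouse 3, with differences of -0.81 (SE 0.28) and -0.69 (SE 0.28). Ehhadh differed by -0.41 (SE 0.26) at 1X and by -0.82 (SE 0.35) at 1.5X. At 1.5X the Ehhadh values were -1.33, -0.87 and -1.54 in the controls and -1.51, -1.89 and -2.79 after phenobarbital, and its groups overlapped in both inputs. Ppara differed by -0.56 (SE 0.25) and -0.71 (SE 0.34), Acadm by -0.44 and -0.53, Acaa2 by -0.35 and -0.51, and Ech1 by -0.29 and -0.46. These 4 genes were thus lower on average in both inputs, without passing in either. By role, the median difference was -0.26 at 1X and -0.25 at 1.5X for the matrix genes and likewise -0.26 and -0.25 for the peroxisomal genes, but 0.18 and -0.065 for the 3 carnitine shuttle genes tested.

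Vnn1 could be tested in each input alone, with 0.42 (SE 0.41) at 1X and -0.91 (SE 0.68) at 1.5X, where it was well above background on 1 of 3 phenobarbital arrays. Tested directly within mice with limma, the phenobarbital effect differed between inputs for 0 of the 30 genes (0% of all genes passed), at a lowest adjusted p of 0.857, and 1 gene, Vnn1, had an unadjusted p under 0.05, as had 5.67% of all genes. Slide and scan session differ together with input in each format, so these cannot be told apart.

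**Figure D2:**
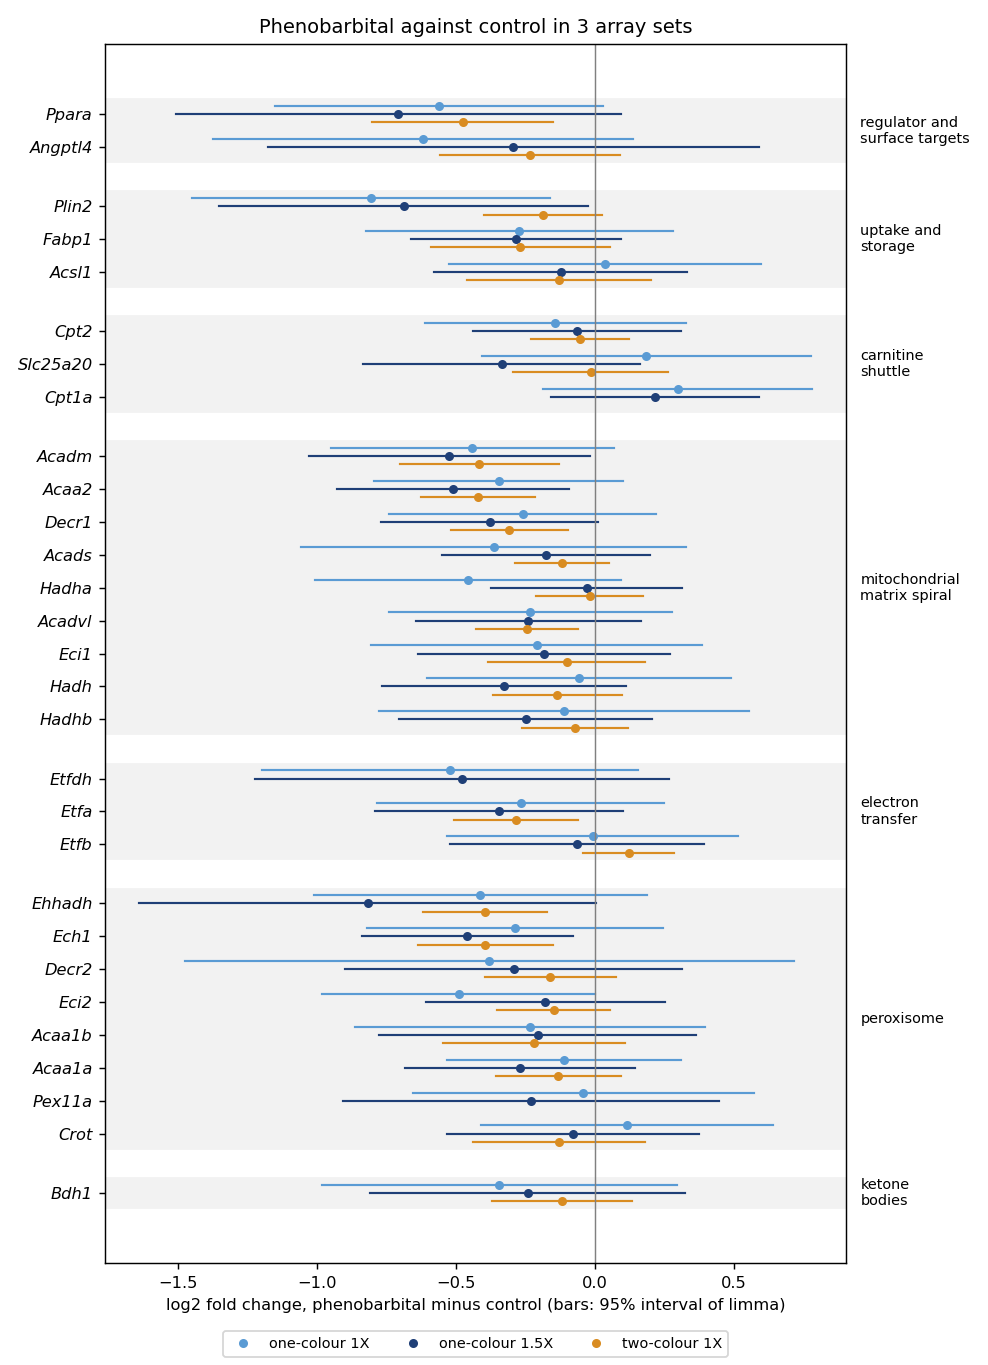
Log2 fold change, phenobarbital minus control (x axis), of the listed genes in the one-colour 1X (light blue), one-colour 1.5X (dark blue) and two-colour 1X (orange) sets, with 95% intervals from limma. Genes follow the roles at the right and a gene without a point in a set was not tested there. Most points lie left of 0 in all 3 sets, and the intervals of Acadm, Acaa2, Decr1, Acadvl, Etfa, Ehhadh, Ech1 and Ppara exclude 0 in the two-colour set.

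In the two-colour 1X set, 1 gene of the list fell, the thiolase gene Acaa2. Its log2 signal was 10.08, 9.89 and 9.91 in the controls and 9.60, 9.61 and 9.41 in the phenobarbital mice, and every phenobarbital mouse was below every control. The difference was -0.42 (SE 0.089, limma adjusted p = 0.0331), a 1.34-fold lower signal. The call was 1 of 26 genes tested, beside 6.11% of all 8261 genes in either direction and 2.8% lower. It did not hold without any 1 of control mice 1, 2 and 3 or phenobarbital mice 1 and 2 (adjusted p 0.0743 to 0.0943), with the Cy3 channel alone (0.186), without loess (0.103), or with the mouse numbers that the source names give for 4 of these arrays (0.218). With the mouse number as a block, Acadm (adjusted p = 0.0415), Ech1 (0.0447) and Ehhadh (0.0380) also passed, 4 genes in all. By the description labels, control and phenobarbital mice of the same number share an array on 4 of the 6 arrays used, so number and array cannot be told apart there.

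The other 25 genes tested in the two-colour 1X set did not pass, and 24 of them had a log2 fold change below 0. Ehhadh measured 7.51, 7.49 and 7.46 in the controls and 7.20, 7.18 and 6.89 after phenobarbital, a difference of -0.40 (SE 0.10, adjusted p = 0.052). Ppara gave -0.48 (adjusted p = 0.0933), Acadm -0.42 (0.0938), Ech1 -0.40 (0.0706) and Decr1 -0.31 (0.093). With Acaa2, 25 of the 26 were below 0 (51.7% of all genes), the exception being Etfb at 0.12 (SE 0.071), and the median was -0.16, beside -0.0072. At an unadjusted p under 0.05, 8 were lower and 0 higher, beside 12.1% and 12.5% of all genes, 10 were lower without overlap, beside 16.6%, and 1, Etfb, was higher without overlap, beside 16.3%. Plin2, at -0.19 (SE 0.093), was well above background on only 4 of 6 phenobarbital channels there, and Acads, Ehhadh and Decr2 on 5 of 6, so these 4 entered through the controls alone. Of the 22 genes well above background throughout both groups, 21 were below 0 (46.3% of all such genes), the median was -0.14, beside 0.016, and 7 were lower at an unadjusted p under 0.05 (12% of all such genes). The effect in this set differed from that in the one-colour 1X set for 0 of the 26 genes (0.0242% of all genes passed), with a lowest adjusted p of 0.998. For 1 gene, Plin2, the unadjusted p was under 0.05, as for 4.78% of all genes, its difference between the sets being 0.62 (SE 0.27). In the Cy3 channel alone, 28 genes were tested, 0 passed (1.32% of all genes did), 23 were below 0 (46.9% of all genes), 6 had an unadjusted p under 0.05 (13.4% of all genes) and the median was -0.18, beside 0.014.

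The two-colour 1.5X set carried little signal in Cy5, so only 7 of the 34 genes were tested, and 0 passed or had an unadjusted p under 0.05 (0% and 1.68% of 1665 genes). Their log2 fold changes ran from -0.36 for Fabp1 to -0.025 for Acadvl, with a median of -0.046, beside 0.031 over all genes, and all 7 were below 0 (44.1% of all genes). Of the 7, Acsl1, Acadvl and Decr1 were dim on some control channels and Etfa and Acaa1a on some phenobarbital channels, which left 2 well above background throughout. Leaving out control mouse 3 moved the median of the 7 to -0.22, and leaving out phenobarbital mouse 3 to -0.0022. The Cy3 channel alone gave 28 genes, 0 passing (0.0962% of all genes did), 24 below 0 (52.4% of all genes), 4 with an unadjusted p under 0.05 (7.47% of all genes) and a median of -0.14, beside -0.0073. Over the 4 sets, 30 genes were tested at least once, and 24 of them were below 0 in every set in which they were tested. Of the 26 tested in 3 or more sets, 22 were below 0 in all. The share of all genes below 0 in every set was not computed, so these counts only describe. The sets share the same 6 mice, so they repeat the measurement and not the animals.

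**Figure D3:**
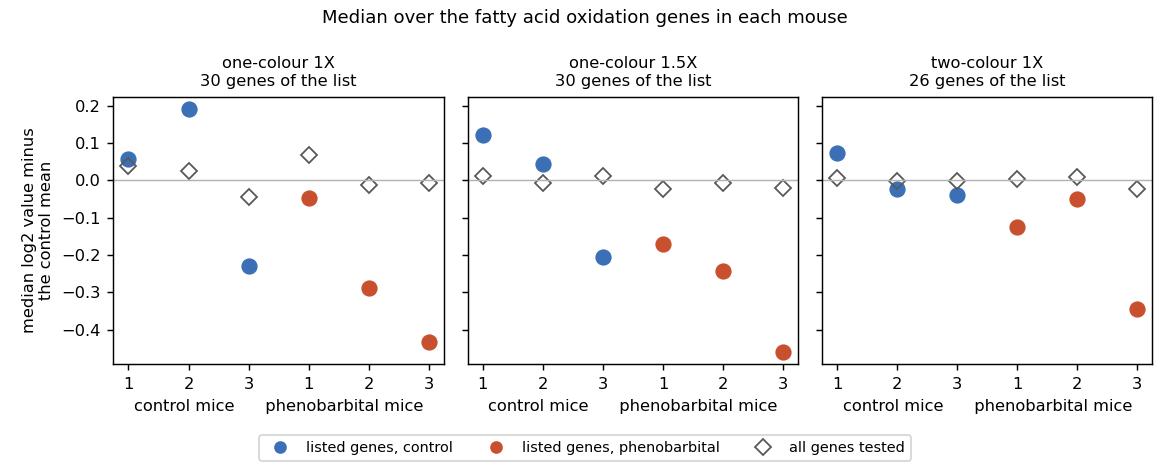
Median over the listed genes of each mouse's log2 value minus the control mean (y axis), in the 3 sets, for control mice (blue) and phenobarbital mice (red), with the median over all genes tested as open diamonds. Phenobarbital mouse 3 is lowest in each set and control mouse 3 is the lowest control in each.

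Mice differed within the groups. Over both one-colour inputs the median of the 29 genes was 0.087, 0.12 and -0.21 in control mice 1 to 3 and -0.13, -0.22 and -0.43 in phenobarbital mice 1 to 3, relative to the control mean. Control mouse 3 was thus lower than phenobarbital mouse 1, and the groups overlapped, while the median over all genes tested ran from -0.027 to 0.026 over the mice. The median log2 fold change ran from -0.37 without control mouse 3 to -0.17 without control mouse 2, and was -0.19 without phenobarbital mouse 3. It was nearest to 0 at -0.14 without control mouse 2 at one-colour 1X, at -0.18 without phenobarbital mouse 3 at 1.5X and at -0.095 without phenobarbital mouse 3 in the two-colour 1X set. In the two-colour 1X set the medians were 0.074, -0.023 and -0.039 in the controls and -0.12, -0.050 and -0.35 after phenobarbital, so phenobarbital mouse 2 and control mouse 3 nearly met.

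Marker sums of other cells also differed between mice, and their part in the results was not tested. The summed linear levels of the 6 pancreas markers, relative to the 75th percentile, were 77.3, 288 and 349 in control mice 1 to 3 and 53.3, 110 and 334 in phenobarbital mice 1 to 3 over both one-colour inputs. They were high in control mice 2 and 3 and phenobarbital mouse 3, and 0 of 6 passed. Hepatocyte marker sums overlapped, at 375 to 428 in the controls and 332 to 410 after phenobarbital, and 0 of 6 passed. In the two-colour 1X set they were, in normalized signal, 112885 to 118063 in the controls and 99696 to 102671 after phenobarbital, without overlap. Of the 6 markers 2 fell there, Ttr (-0.61, limma adjusted p = 0.00929) and Alb (-0.39, 0.0207), beside 2.8% of all genes. The others did not pass, with Apoa1 at -0.31, Apob at -0.12, Fgb at 0.014 and Serpina1c at 0.020, so they did not share a direction. The median log2 fold change of the 6 hepatocyte markers was -0.21, beside -0.16 for the listed genes, and -0.15 beside -0.27 over both one-colour inputs. The 4 stellate cell and fibroblast markers summed to 9.99 to 11.4 in the controls and 12.3 to 13.6 after phenobarbital over both one-colour inputs, with no overlap, and 0 of the 3 tested passed. Their sums were also apart at one-colour 1X, at 13.3 to 15.7 and then 16.6 to 19.6. They were apart at 1.5X, at 7.52 to 8.38 and 9.18 to 9.81, and at two-colour 1X, at 2359 to 2443 and 2731 to 2958. Sums of the 4 sinusoidal endothelium markers in the two-colour 1X set were 859 to 871 in the controls and 710 to 820 after phenobarbital. Of the 3 tested there 0 passed, with Stab1 at -0.14, Stab2 at -0.27 and Clec4g at 0.043. Over both one-colour inputs these sums overlapped, at 2.49 to 3.11 in the controls and 2.08 to 2.61 after phenobarbital.

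Of the 34 genes, 7 were measured by more than 1 probe, and the text above gives the probe with the highest mean one-colour signal. The 3 probes of Ppara differed by -0.64, -0.61 and -0.55 over both one-colour inputs, all well above background on all 12 arrays, and each read a lower mean after phenobarbital. The 2 probes of Etfa gave -0.31 and -0.67, and those of Acsl1 gave -0.045 and -0.006. Cpt2 had a probe at -0.10 and another at 0.084, both well above background throughout, and so had no direction common to its probes. Of the 3 Bdh1 probes, 2 gave -0.29 and -0.28 and the third, well above background on 10 of 12 arrays, gave 0.077. The second probes of Cpt1a (-0.36, well above background on 1 of 12 arrays) and Decr1 (0.12, on 0 of 12) pointed against the first.

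**Figure D4:**
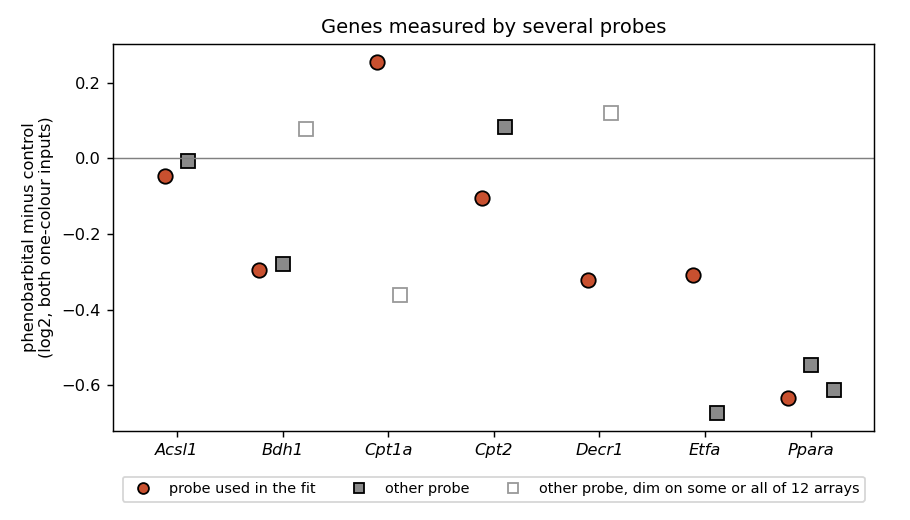
Difference in log2 signal, phenobarbital minus control, for each probe of the 7 genes with several probes over both one-colour inputs, from group means of 3 mice each. Circles are the probe used in the tests, filled squares other probes and open squares probes not well above background on some or all of 12 arrays. The 3 Ppara probes lie between -0.64 and -0.55, while probes of Cpt1a, Cpt2, Decr1 and Bdh1 lie on both sides of 0.

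Genes of the same pathway outside the list were read from 52 others, of which 41 were tested over both one-colour inputs. None passed, 5 were lower and 2 higher at an unadjusted p under 0.05, beside 6.81% and 6.66% of all genes, 30 were below 0 (53% of all genes) and the median was -0.19, beside -0.019. Over the 30 well above background throughout both groups, 23 were below 0 and the median was -0.17. Among the groups with 7 or more genes tested, 10 of 12 peroxisomal genes, 9 of 12 further mitochondrial and acyl-CoA genes, 7 of 7 PPAR partners and coactivators and 3 of 8 other PPAR alpha targets were below 0. The genes named by size of difference were Acsl4, a synthetase for arachidonic acid, at -1.19 (SE 0.51, adjusted p = 0.369), Acot1, a cytosolic thioesterase and PPAR alpha target, at -1.04 (SE 0.25, 0.134), and G0s2, an inhibitor of the lipase ATGL, at 1.03 (SE 0.25, 0.137). Acsl4 entered the test through the controls alone and G0s2 through the phenobarbital mice alone, so their size is a description. Acsl4 was split by mouse, with -2.72, -4.73 and -4.58 after phenobarbital against -2.47, -2.84 and -3.13 in the controls, and it passed without phenobarbital mouse 1 (-1.84, adjusted p = 0.0309). It was well above background on 3 of 6 phenobarbital arrays. The G0s2 probe was well above background on 4 of 6 control arrays, and its difference was 0.32 at 1X and 1.75 at 1.5X.

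**Figure D5:**
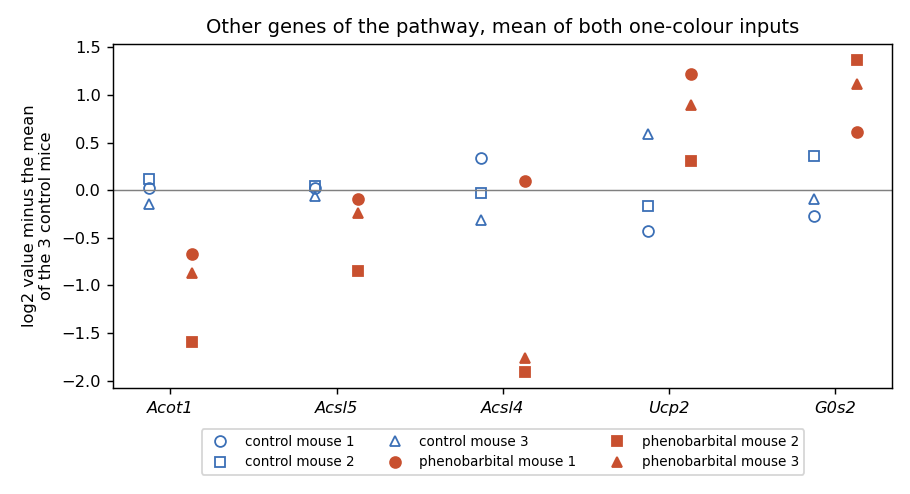
Log2 value of each mouse minus the mean of the 3 control mice (y axis), averaged over both one-colour inputs, for 5 other genes of the pathway. Open blue symbols are control mice and filled red symbols phenobarbital mice, with 1 shape per replicate number. Acot1 and Acsl5 are lower without overlap, G0s2 is higher without overlap, and the groups of Acsl4 and Ucp2 overlap.

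In the two-colour 1X set 28 of the 52 were tested, and genes that fell or rose are set beside 2.8% and 3.32% of all genes. Acot1 fell by 0.66 on the log2 scale (SE 0.091, adjusted p = 0.00583), from 8.37, 8.10 and 8.14 in the controls to 7.49, 7.52 and 7.61, and the acyl-CoA synthetase Acsl5 by 0.35 (SE 0.077, adjusted p = 0.036). The mitochondrial carrier gene Ucp2 rose by 0.70 (SE 0.15, adjusted p = 0.0371), from 8.45, 9.06 and 9.02 to 9.49, 9.59 and 9.55. The Acot1 probe may take up signal from near-identical thioesterase genes. With the source names' mouse numbers, Acot1 (adjusted p = 0.0923), Acsl5 (0.369) and Ucp2 (0.335) did not pass. In the Cy3 channel alone Acot1, Acsl5 and Ucp2 did not pass, and Acsl5 did not without loess. Of the 6 fits that each left out a mouse, Acsl5 passed in the one without phenobarbital mouse 3 and Ucp2 in those without control mouse 1 or 2, while Acot1 passed in all 6.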

How the data were processed

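Agilent Feature Extraction 11.0.1.1 made the deposited intensity values, per the file headers. The authors' deposited processed intensities are background-subtracted (and dye-normalized on two-colour arrays), and the log10 ratios of the authors' deposited value table served as an alternative, after the sign was turned on 8 of 16 two-colour arrays, where the table held the reverse of the scanner files' Cy5-over-Cy3 ratio. One-colour values were log2 processed signals minus each array's 75th percentile, taken over probes with signal well above background throughout a set. On two-colour arrays, median signals were used after normexp (offset 50), loess (span 0.3) and Aquantile. A mouse's value is the mean of its Cy3 and Cy5 means. Of the 28 arrays, 2 were left out, and 4 others have conflicting mouse numbers, because description and source names disagree.

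Flagged outlier spots (non-uniform or population) and 3671 control spots were left out. No probe had a share of at least 0.5 of its kept spots flagged as saturated on any array. Gene names came from RefSeq (GRCm38.p6) by accession, for 27235 probes, while 28446 stayed unnamed. The probe with the highest mean one-colour signal stood for a gene. A gene was tested if well above background in every measurement of at least 1 group, with limma 3.58.1 in R 4.3.3 (lmFit, eBayes) on all genes and Benjamini-Hochberg adjustment at 0.05, after checks on simulated data. With 3 mice against 3, an exact permutation test cannot go below 0.10. The number of mice limits the precision, and the arrays repeat the same 6 mice. Each set is 1 slide.

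The members and all gene lists were chosen with earlier results of these data known. Named in full were the 2 genes of each role with the largest absolute difference over both inputs, and, of the wider pathway, the 3 largest and those passing in a set, of which 1 is not reported here. Alternatives changed the filter, scaling, normalization, probe choice, channel, mouse numbers and blocks, or left out a mouse, and 1 added after seeing the data kept only genes well above background in both groups. Probe coordinates were not used here.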

Additional observations from a re-analysis of the deposited data

How the results depend on the processing

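Over 122 results on the listed genes and 1776 alternative fits, direction and side of the threshold were kept in 1696, 68 turned the direction, 4 passed newly and 8 no longer passed. The deposited log ratios of the two-colour sets were not tested, so for them only the direction was compared. The 1 listed gene passing in the two-colour 1X set became 0 without loess, 0 with the Cy3 channel alone and 0 with the source names' mouse numbers, and 0 to 2 when a mouse was left out. The mouse number as a replicate block gave 4 there (Acadm, Ech1 and Ehhadh added) and 0 in the other sets. The cause was not tested. Same-numbered mice of the 2 groups correlated at 0.052, -0.12 and 0.28 over both one-colour inputs, where 2 of 6 mice correlated best with their own number, at 0.026, -0.11 and 0.26 at 1X (3 of 6), at 0.085, 0.026 and 0.18 at 1.5X (4 of 6), at 0.28, -0.031 and 0.38 at two-colour 1X (3 of 6) and at 0.14, -0.28 and 0.33 at two-colour 1.5X (3 of 6), so the numbers are not taken as pairs. Without scaling between arrays the median of the listed genes was -0.49 over both inputs and -0.56 at 1X, where the median over all genes was -0.23 and -0.28.

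Small differences turned in sign. With the mean of all probes the values were Cpt1a -0.053 over both inputs, Cpt1a -0.037 at one-colour 1X, Cpt1a -0.069 at one-colour 1.5X, Cpt2 0.037 at one-colour 1.5X and Cpt2 0.022 at two-colour 1X. With normexp and quantile normalization the values were Slc25a20 0.030 over both inputs, Acsl1 0.010 over both inputs, Etfb 0.025 over both inputs and Etfb 0.076 at one-colour 1X. Without scaling the values were Crot -0.20 over both inputs, Slc25a20 -0.11 at one-colour 1X, Acsl1 -0.26 at one-colour 1X and Crot -0.18 at one-colour 1X. With the slide row as a block the values were Acsl1 -0.023 at one-colour 1X, Crot -0.0032 at one-colour 1X and Etfb 0.043 at one-colour 1X. Without loess the values were Hadha 0.15 at two-colour 1X, Cpt2 0.086 at two-colour 1X and Acsl1 0.073 at two-colour 1.5X. In Cy3 alone the values were Hadha 0.027 at two-colour 1X, Cpt2 0.051 at two-colour 1X, Acsl1 0.049 at two-colour 1.5X and Etfb 0.043 at two-colour 1.5X. With the series' deposited log ratios the values were Hadha 0.055 at two-colour 1X.

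Leaving out 1 mouse gave these ranges for genes that turned. Over both inputs these were Acsl1 -0.22 to 0.090, Etfb -0.17 to 0.074, Slc25a20 -0.21 to 0.037, Crot -0.12 to 0.14 and Pex11a -0.30 to 0.16. Others kept their sign there but moved over 1.5 times, among them Ppara -0.86 to -0.41, Angptl4 -0.70 to -0.15, Etfdh -0.68 to -0.23, Decr2 -0.55 to -0.040, Bdh1 -0.49 to -0.12, Acaa1b -0.43 to -0.055, Hadhb -0.36 to -0.027, Eci1 -0.33 to -0.0062, Hadh -0.29 to -0.048 and Cpt2 -0.21 to -0.044. At one-colour 1X these were Pex11a -0.23 to 0.22, Etfb -0.16 to 0.15, Hadh -0.17 to 0.10, Hadhb -0.34 to 0.11, Acsl1 -0.17 to 0.19, Crot -0.039 to 0.25, Decr2 -0.69 to 0.21 and Eci1 -0.35 to 0.035. At one-colour 1.5X these were Etfb -0.18 to 0.068, Cpt2 -0.15 to 0.0047, Crot -0.20 to 0.024, Angptl4 -0.60 to 0.016 and Pex11a -0.42 to 0.10. At two-colour 1X these were Slc25a20 -0.11 to 0.10, Hadha -0.055 to 0.039, Eci1 -0.18 to 0.039 and Crot -0.22 to 0.029. At two-colour 1.5X these were Acsl1 -0.20 to 0.029, Etfb -0.25 to 0.20, Acadvl -0.11 to 0.11 and Decr1 -0.14 to 0.064.

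The number of genes passing of all tested moved over 1.5 times as follows. Over both inputs 95 became 28 with no filter on dim probes, 37 with the replicate block, 59 without scaling and 395 with 12 arrays and the mouse as a random block, and 145 with normexp and quantile normalization. At 1X 30 became 7 with no filter, 3 with the replicate block, 18 without scaling and 10 with the slide row as a block. At 1.5X 31 became 7 with no filter, 4 with the replicate block, 160 with normexp and quantile normalization and 15 with the slide row, and 83 with genes well above background in both groups. At two-colour 1X 505 became 136 in Cy3 alone and 100 with the source names' mouse numbers, and at two-colour 1.5X 0 became 15 in Cy3 alone. Of those passing, the lower ones were 10 of 95 over both inputs and 16 of 59 without scaling, 1 of 31 at 1.5X and 32 of 160 with normexp and quantile normalization, and 231 of 505 at two-colour 1X and 128 of 428 without loess. Leaving out a mouse gave 16 to 104 over both inputs, 5 to 18 at 1X, 11 to 140 at 1.5X and 213 to 622 at two-colour 1X. Outside the list, Acot1 over both inputs passed with 12 arrays (adjusted p = 0.0204). Genes near background, among them Fgf21, Cd36 and Acadl, allow no statement on either group.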
